A study of Glycine max with 16 samples.

Results

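Plot 2 was 1 of 4 field plots of soybean (Glycine max) cultivar 93B15 in which leaf transcripts were followed through 1 day of sampling. Its 4 libraries, chosen by the replicate number 2 in their titles, were set against the 8 libraries of plots 1 and 3, of 16 libraries in all. The 4 libraries of plot 4 stayed out of these tests and are given beside plot 2 where they bear on it. Each library held the pooled leaflets of an uppermost fully expanded leaf, taken at 8:00, 11:00, 14:00 or 17:00 in August during seed fill. No plot carried a treatment or a transgene, and all were grown at the SoyFACE farm in Illinois. Each plot was sampled on a day of its own, so plot and sampling day cannot be told apart, and which date belonged to plot 2 is not stated. There was 1 plot 2, so every p-value below measures the spread between libraries around the time of day and the group, not the spread between plots or between days.

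Plants keep time with feedback loops of transcription. In Arabidopsis, LHY and CCA1, whose soybean relatives are the LCL genes, peak around dawn, the PSEUDO-RESPONSE REGULATORS PRR9, PRR7 and PRR5 follow in order through the day, and TOC1, LUX, ELF4 and GIGANTEA belong to the afternoon and evening. A leaf sampled at a set hour therefore reads the clock as well as light, temperature, water and nutrients of that day. In the filling stage, soybean leaves also move nitrogen and carbon to the seed, and NAC transcription factors, ferritins, lipoxygenases and sugar transporters are among the genes that respond to that state.

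Transcript abundance is given as CPM, the count of a gene relative to the total of its library after scaling by the trimmed mean of M-values (TMM). Total counts were 19335877 to 22424939 in plot 2 and 14968570 to 21705056 in plots 1 and 3, and 35521 of 56044 genes had at least 8 counts in 1 of these 12 libraries and were tested. The leaf label was checked with summed CPM of chlorophyll a/b binding proteins, 7324 to 21595 in plot 2 and 4509 to 18635 in plots 1 and 3, and of the Rubisco small chain, 6240.0 to 14482 in plot 2 and 5767 to 14326 in plots 1 and 3. No seed storage or leghemoglobin locus was among the loci with a name, so seed and nodule tissue were not checked. In plot 2 the 14:00 and 17:00 libraries stood apart in 1 measure of library quality, the summed CPM of 20 loci whose names (rRNA intron-encoded homing endonuclease and cytochrome P450 like TBP) are given to ribosomal RNA sequence. It was 16015 at 14:00 and 8248 at 17:00 in plot 2, against 1105 to 6197 in the 8 libraries of plots 1 and 3, and reached 13263 in plot 4. In bulk leaf RNA, fewer cells of a type and less RNA per cell cannot be told apart. Many soybean genes have near-identical copies, and whether reads were counted by strand is not stated, so values of family members and of genes with an antisense partner are uncertain.

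Against plots 1 and 3, 26 genes passed the test in plot 2. In all of them plot 2 lay outside both plots at every hour sampled. The same values chose these genes, so that position is a description and no separate result. A lipoxygenase, 2 proline-rich proteins of the DC2.15 type, an invertase and pectin methylesterase inhibitor, a thaumatin-like protein and a squamosa promoter binding-like factor were higher in plot 2. A NAC transcription factor and an auxin-induced protein named 5NG4 were lower. Called means a Benjamini-Hochberg adjusted p under 0.05 in edgeR's quasi-likelihood test, with time of day in the model, plus a fold change of 1 or more in size on the log2 scale. By that rule 26 genes were called (0.0732% of those tested), 19 higher (0.0535%) and 7 lower (0.0197%) in plot 2, and 11 of the 26 had a name. Other tools on the same libraries called more, limma with voom 48 and the DESeq2 Wald test 294, of which 54.4% were higher in plot 2, against 73.1% of the 26. Over all genes tested, plot 2 was above both plots at all 4 hours for 1247 (3.51%) and below both for 1484 (4.18%).

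**Figure D1:**
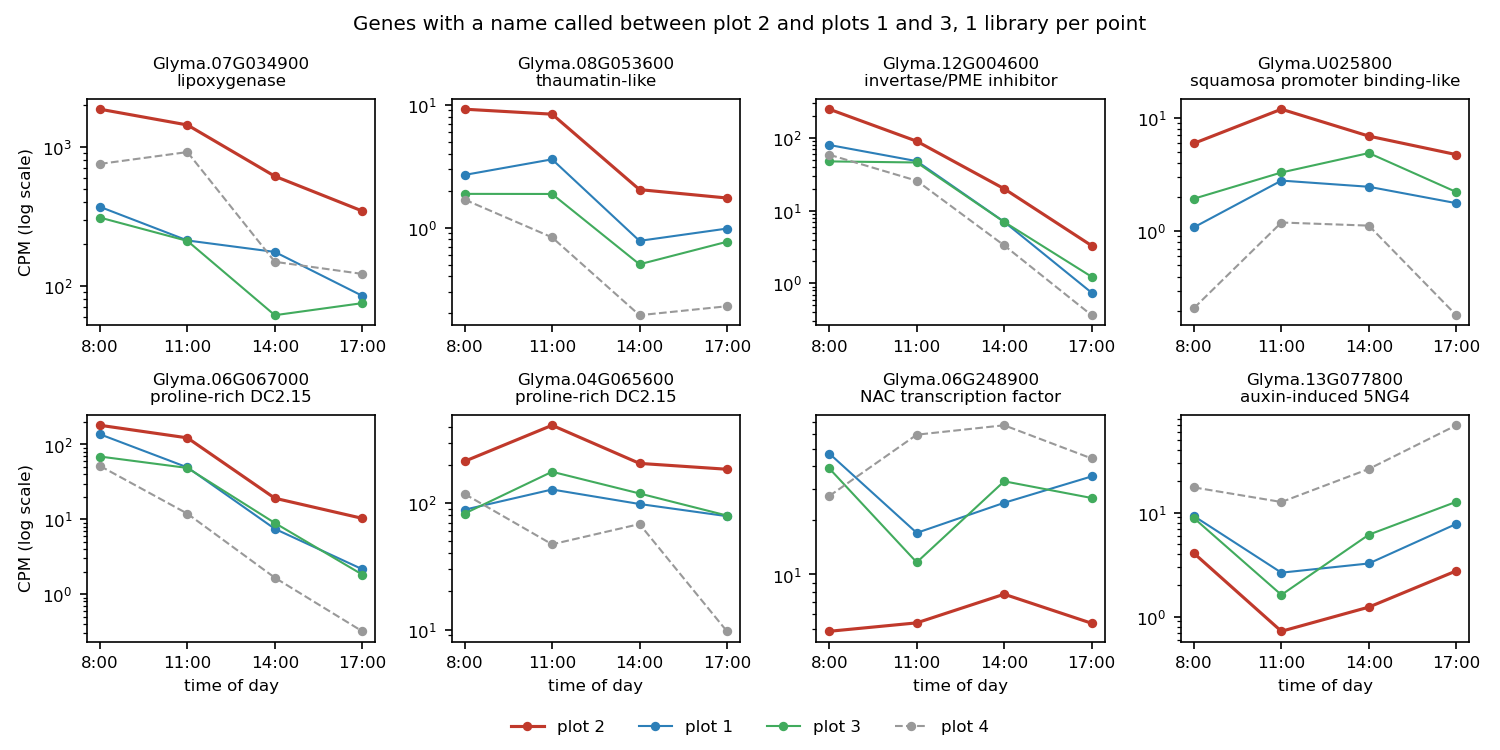
CPM on a log axis against time of day for the 8 called genes with a name and a mean of at least 5 CPM in the higher group, with 1 library per point and plot 4, which was not in the test, dashed. Plot 2 was above plots 1 and 3 at all 4 hours for 6 genes and below them for 2, which was a condition for showing a gene here.

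The largest difference among called genes with a name and at least 5 CPM was in Glyma.07G034900, a lipoxygenase, an enzyme that adds oxygen to polyunsaturated fatty acids. Plot 2 had 1867, 1438, 615 and 346 CPM at 8:00, 11:00, 14:00 and 17:00, against 370.4, 212, 176 and 84.8 CPM in plot 1 and 310.1, 211, 61.5 and 75.2 CPM in plot 3. Every library of plot 2 exceeded both others of its hour, at 4.32 to 6.80 times their mean, while its 17:00 value lay below the 8:00 value of plot 1, as the level was lower in the afternoon than in the morning in all 3 plots. The fitted level was 5.40 times that of plots 1 and 3 (log2 fold change 2.43 ± 0.22 (SE), adjusted p = 0.00712, edgeR). The call held with 11 of the 12 libraries left out in turn and was lost without the 8:00 library of plot 2 (edgeR adjusted p = 0.0787). Plot 4 had 754, 918, 149 and 122 CPM, below plot 2 at every hour.

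Of 5 lipoxygenase loci with a name, 1 was called and all 5 had a positive log2 fold change, with a median of 0.53 against -0.02 over all genes tested. Loci with a name come mostly from a list that the study chose on these same libraries for a high spread between plots, so their counts are not independent evidence of a difference between plots. Glyma.08G189600 had 372, 398, 284 and 89 CPM in plot 2, against 175, 169.9, 121 and 66.3 CPM in plot 1 and 27.4, 95.4, 26 and 52 CPM in plot 3. It was above both plots at all 4 hours but was not called (log2 fold change 1.54 ± 0.46 (SE), adjusted p = 0.195, edgeR). Glyma.07G034800, which lies next to the called gene in locus number, had log2 fold change 0.52 and was also above both plots at all 4 hours, and Glyma.07G006900 had 0.46.

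Both DC2.15 loci that were called were higher in plot 2. DC2.15 proteins are small proline-rich proteins first found in carrot cell culture. Glyma.04G065600, 1 of them, had 214, 412, 206 and 185 CPM in plot 2, against 88.7, 128, 98.3 and 78.8 CPM in plot 1 and 82.7, 177, 119 and 79.7 CPM in plot 3. No library of plots 1 and 3 reached the lowest of plot 2 (log2 fold change 1.23 ± 0.13 (SE), adjusted p = 0.0112, edgeR). The gene was called on these same values, and how many of all genes tested were so separated was not counted. Of the 12 fits that left out 1 library, the one without plot 2 at 8:00 lost its call (edgeR adjusted p = 0.0873). Settings that changed which plots or hours were compared also ended the calls of both genes. Glyma.04G065600 had adjusted p = 0.0580 without the 8:00 libraries, 0.107 without those of 14:00, 0.0913 without those of 17:00, 0.198 against plot 3 alone and 0.0963 with plot 4 added to plots 1 and 3. Glyma.07G034900 had 0.0556 without 8:00, 0.0809 without 17:00 and 0.0856 against plot 3 alone (edgeR). The other, Glyma.06G067000, fell through the day in every plot and had 180.3, 122, 19.1 and 10.3 CPM in plot 2, against 137, 49.4, 7.46 and 2.16 CPM in plot 1 and 69, 48.6, 8.94 and 1.83 CPM in plot 3. Here plot 2 was above both plots hour by hour, with ratios to their mean of 1.75 at 8:00 and 5.17 at 17:00 (log2 fold change 1.42 ± 0.23 (SE), adjusted p = 0.0471, edgeR), and the call held in 1 of the 12 fits that left out a library.

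Glyma.12G004600 encodes a member of the family that inhibits invertases and pectin methylesterases, enzymes that split sucrose and remodel pectin. It had 247, 89.7, 19.9 and 3.30 CPM in plot 2, against 79.6, 47.8, 7.01 and 0.746 CPM in plot 1 and 47.4, 45.8, 6.98 and 1.23 CPM in plot 3. The gene dropped steeply from morning to late afternoon in each plot, and plot 2 stayed 1.92 to 3.89 times the mean of the others (log2 fold change 1.54 ± 0.18 (SE), adjusted p = 0.0224, edgeR, called in 8 of the 12 fits that left out a library). Glyma.08G053600, a thaumatin-like protein of a family known from defence against fungi, had 9.21, 8.39, 2.04 and 1.74 CPM in plot 2, against 2.68, 3.60, 0.779 and 0.981 CPM in plot 1 and 1.88, 1.88, 0.502 and 0.766 CPM in plot 3. These are low values in the afternoon, and the call (log2 fold change 1.60 ± 0.23 (SE), adjusted p = 0.0333, edgeR) held in 3 of 12 such fits. Glyma.U025800, a squamosa promoter binding-like protein, of a family of transcription factors that act in phase change and leaf and shoot development, had 5.93, 11.8, 6.86 and 4.72 CPM in plot 2, against 1.08, 2.79, 2.46 and 1.77 CPM in plot 1 and 1.93, 3.29, 4.87 and 2.21 CPM in plot 3. Plot 2 was higher at all 4 hours (log2 fold change 1.53 ± 0.24 (SE), adjusted p = 0.0438, edgeR), and the call held in 1 of 12 fits.

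The called fall with the largest size and a name was in Glyma.06G248900, a NAC transcription factor, of a plant-specific family with members that promote leaf senescence. Plot 2 had 4.84, 5.39, 7.77 and 5.36 CPM, against 47, 17, 25 and 35 CPM in plot 1 and 38.8, 11.7, 32.9 and 26.6 CPM in plot 3. The highest library of plot 2 was below the lowest of the other 8, a separation that carries the limit given for Glyma.04G065600. The fitted level was 4.64 times lower in plot 2 (log2 fold change -2.21 ± 0.26 (SE), adjusted p = 0.0206, edgeR). The call held in 9 of the 12 fits that left out a library and was lost without plot 2 at 8:00, 14:00 or 17:00, with adjusted p at most 0.117 (edgeR). Plot 4 had 27.3, 59.8, 67.4 and 44.1 CPM, also above plot 2 at every hour.

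NAC factors as a list lay low in plot 2. Of 9 tested loci, 1 was called lower and none higher, all 9 had a negative log2 fold change, and 5 were below both plots at all 4 hours, with a list median of -0.81 against -0.02 over all genes tested. The list carries the same limit as the lipoxygenases, since it was drawn from loci chosen for their spread between plots. Glyma.02G070000 had 1.20, 1.83, 1.45 and 0.825 CPM in plot 2, against 8.52, 2.13, 3.08 and 3.57 CPM in plot 1 and 6.48, 2.66, 3.11 and 2.89 CPM in plot 3. It was below both plots throughout, without a call (log2 fold change -1.47 ± 0.31 (SE), adjusted p = 0.101, edgeR). Glyma.16G151500 had log2 fold change -1.26, and Glyma.12G149100, which stayed under 4 CPM in all 12 libraries, had -2.54. DESeq2's Wald test called 4 of the 9 lower. Summed over the list, plot 2 had 15.7 to 19.9 CPM, against 28.2 to 76.6 CPM in plots 1 and 3 and 90.2 to 150.4 CPM in plot 4.

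Glyma.13G077800, an auxin-induced protein of the 5NG4 type, which in pine is a membrane protein related to nodulins, had 4.06, 0.722, 1.23 and 2.75 CPM in plot 2, against 9.24, 2.64, 3.24 and 7.77 CPM in plot 1 and 8.83, 1.62, 6.12 and 12.7 CPM in plot 3. It was below both plots at all 4 hours (log2 fold change -1.60 ± 0.25 (SE), adjusted p = 0.0455, edgeR), but the call was lost in each of the 12 fits that left out a library, with adjusted p between 0.0506 and 0.220. The remaining called genes with a name, chosen for mention after their values were seen, were all at low levels. BCL-2 associated athanogene 6A (Glyma.07G061500), a co-chaperone, had 0.364, 5.0, 10.2 and 3.21 CPM in plot 2, against 0, 0.954, 0.287 and 0.275 CPM in plot 1 and 0, 0.626, 1.36 and 0.723 CPM in plot 3. It peaked at 14:00 in plot 2 and was above both plots at every hour (log2 fold change 3.13 ± 0.41 (SE), adjusted p = 0.0273, edgeR). A C4-dicarboxylate and malic acid transporter (Glyma.07G262500) had 1.82, 1.83, 0.965 and 1.83 CPM in plot 2 with no library of plots 1 and 3 above 0.510 CPM (log2 fold change 3.30). An N-hydroxycinnamoyl/benzoyltransferase (Glyma.04G040000), of a family that makes phenolic amides and esters, had 0.520, 1.72, 0.750 and 0.779 CPM in plot 2 and 2.12 to 5.28 CPM in plots 1 and 3 (log2 fold change -1.97). In the order given, the calls of these low genes held in 6, 4 and 6 of the 12 fits that left out a library. With plot 4 added to plots 1 and 3, Glyma.07G061500 was not called (log2 fold change 2.04, edgeR adjusted p = 0.115), while Glyma.07G262500 and Glyma.04G040000 were.

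The other 15 called genes, 11 higher and 4 lower in plot 2, had no name. Glyma.02G269000 had 63.8, 12.4, 4.45 and 1.47 CPM in plot 2, against 21.4, 6.16, 2.05 and 1.02 CPM in plot 1 and 18.1, 6.0, 1.76 and 1.02 CPM in plot 3. It was 3.23 times the mean of the other plots at 8:00 and 1.44 times at 17:00 (log2 fold change 1.20 ± 0.15 (SE), adjusted p = 0.0247, edgeR). Glyma.09G112700 had 63.9, 69, 125 and 91.4 CPM in plot 2, against 23.5, 18.2, 24.9 and 20.9 CPM in plot 1 and 21.5, 41.8, 58.2 and 22 CPM in plot 3. Here, with the limit given for Glyma.04G065600, no library of plots 1 and 3 reached the lowest of plot 2 (log2 fold change 1.61 ± 0.24 (SE), adjusted p = 0.0388, edgeR). Glyma.17G102200 increased through the day in plot 2, with 2.08, 4.17, 9.49 and 23.5 CPM, against 8.57, 11.5, 26.8 and 54.2 CPM in plot 1 and 7.42, 6.62, 14.8 and 53.4 CPM in plot 3. It was below both plots at each hour (log2 fold change -1.31 ± 0.21 (SE), adjusted p = 0.0471, edgeR). These examples were chosen after their values were seen.

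The number of calls rested on single libraries. Leaving out the libraries of plot 2 at 8:00, 11:00, 14:00 and 17:00 gave 0 (unadjusted p under 0.05 for 3204 genes), 7, 2 and 6 calls, those of plot 1 gave 7, 17, 6 and 9, and those of plot 3 gave 23, 19, 11 and 15 (edgeR). Scaling by library totals alone gave 11 calls, of which 54.5% were higher in plot 2. Plot 2 also stood outside plot 4, which had no part in the calls, in most of these genes. It was above all 3 other plots at all 4 hours in 17 of the 19 called higher and below all 3 in 6 of the 7 called lower, against 1.89% and 2.14% of all genes tested. The values of plot 2 itself chose these genes, so these shares are a description.

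**Figure D2:**
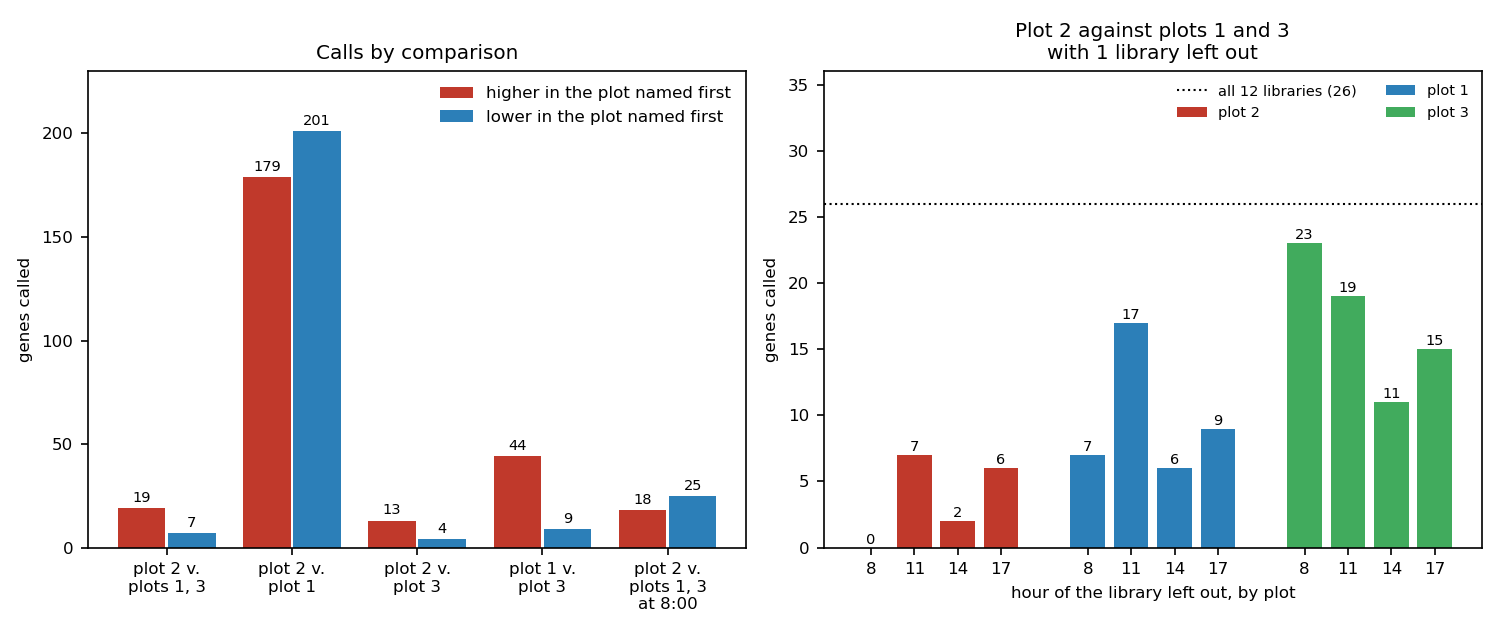
Left, number of genes called higher and lower in each comparison, with the plot named first taken as the group in question. Right, number of genes called between plot 2 and plots 1 and 3 when 1 library, given by plot and hour, was left out, with the 26 calls of all 12 libraries as a dotted line: leaving out plot 2 at 8:00 gave 0.

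When plot 2 was set against each plot on its own, it differed in more genes from plot 1 than from plot 3, with 2 purple acid phosphatases among those lower than in plot 1. Against plot 1, 380 genes were called (1.07%), 179 higher and 201 lower in plot 2. Against plot 3, 17 were called (0.0479%), 13 higher and 4 lower, and 11 genes were called in both. Between plots 1 and 3 themselves, by the same measure, 53 were called (0.149%), 44 higher and 9 lower in plot 1. These contrasts share libraries and the difference between their counts was not tested. Of the 26 genes called against plots 1 and 3 together, 25 were called against plot 1, 9 against plot 3, and none between plots 1 and 3. In that last contrast edgeR gave an unadjusted p under 0.05 for 5557 genes. The same libraries chose the 26, and the test that chose them counts a difference between plots 1 and 3 as spread. These numbers are thus a description and no separate result.

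In the contrast with plot 3, the lipoxygenase, the NAC factor and Glyma.04G065600 were also called, with log2 fold changes of 2.69, -2.11 and 1.15. Against plot 1 the values were 2.21, -2.32 and 1.31. These contrasts use the same libraries of plot 2 that chose these genes, so they are no separate result. In a fit against plot 3 alone, without the libraries of plot 1, none of them was called (edgeR adjusted p = 0.0856, 0.198 and 0.198). A FLOWERING LOCUS T-like protein 2 (Glyma.19G108100), of the family of mobile flowering signals, was chosen after its values were seen. It had 0.520, 0.667, 1.02 and 0.458 CPM in plot 2, against 2.58, 1.47, 4.96 and 2.28 CPM in plot 1 and 6.11, 7.15, 3.82 and 5.32 CPM in plot 3. It was lower than either plot at every hour and was called against each (log2 fold change -2.07 against plot 1 and -3.14 against plot 3), while the test against both together gave adjusted p = 0.0631 (edgeR). An alpha-expansin, Glyma.19G024200, of the proteins that loosen the wall as cells grow, had 2.55, 3.78, 3.86 and 5.59 CPM in plot 2, against 0.929, 1.98, 1.31 and 3.69 CPM in plot 1 and 0.314, 1.41, 0.653 and 1.70 CPM in plot 3. It was higher than either plot at every hour and was likewise called against each (log2 fold change 1.12 and 2.08), with adjusted p = 0.0879 against both together (edgeR).

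Purple acid phosphatases release phosphate from organic esters and are known from phosphate starvation. Glyma.08G056400 had 35.3, 22.7, 6.06 and 11.4 CPM in plot 2, against 96.2, 53.6, 39.6 and 62.1 CPM in plot 1 and 46.3, 7.56, 13.2 and 5.62 CPM in plot 3. Plot 2 was below plot 1 at every hour (log2 fold change -1.92, edgeR adjusted p = 0.0360) but above plot 3 at 11:00 and 17:00 and below it at the other hours (0.20, adjusted p = 0.851). Glyma.05G247900 was similar, with -1.55 against plot 1 (edgeR adjusted p = 0.0265) and 0.11 against plot 3. Both were chosen because they were called. Of 7 phosphate starvation loci, these 2 were called lower against plot 1 (4 at an unadjusted p under 0.05, edgeR) and none was called against plot 3 (1 at that p). Between plots 1 and 3 none of the 7 was called either, and Glyma.08G056400 had log2 fold change 2.13 there (adjusted p = 0.0554, edgeR). Another purple acid phosphatase, Glyma.06G170300, had log2 fold change 0.18 against plot 1 and 2.04 against plot 3.

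Leaving out 1 library moved these counts too. Against plot 1 there were 20 calls without plot 1 at 14:00, 48 without plot 2 at 14:00, 56 without plot 1 at 17:00, 169 without plot 2 at 17:00, 194 without plot 1 at 8:00 and 242 without plot 3 at 11:00. Against plot 3 there were none without plot 3 at 8:00 or 11:00 (unadjusted p under 0.05 for 3929 and 3986 genes, edgeR), 1 without plot 2 at 8:00, plot 1 at 14:00 or 17:00, or plot 3 at 17:00, 2 without plot 2 at 17:00, 4 without plot 3 at 14:00, 7 without plot 1 at 8:00 and 10 without plot 2 at 11:00. Between plots 1 and 3 there were 353 without plot 2 at 8:00, 97 without plot 3 at 8:00, 27 without plot 1 at 8:00, 24 without plot 3 at 14:00, 2 without plot 3 at 17:00, and none without plot 1 at 11:00, 14:00 or 17:00, plot 3 at 11:00 or plot 2 at 17:00 (unadjusted p under 0.05 for 4193 to 5294 genes).

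At 8:00, transcripts of several clock genes were far lower in plot 2, and they had come near the levels of the other plots by 11:00 (PRR5) or by 17:00 (PRR9 and GIGANTEA). PRR5 had 2.70 CPM at 8:00 in plot 2, against 38.3 CPM in plot 1 and 49.3 CPM in plot 3, and GIGANTEA had 3.49 CPM, against 20.5 and 38.3 CPM. A trichome birefringence-like protein and an aspartic proteinase were among the genes higher at that hour. Whether the difference at 8:00 departed from that at the 3 later hours was tested with a term of its own, which rests on 1 library of plot 2, assumed to vary like the others.

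**Figure D3:**
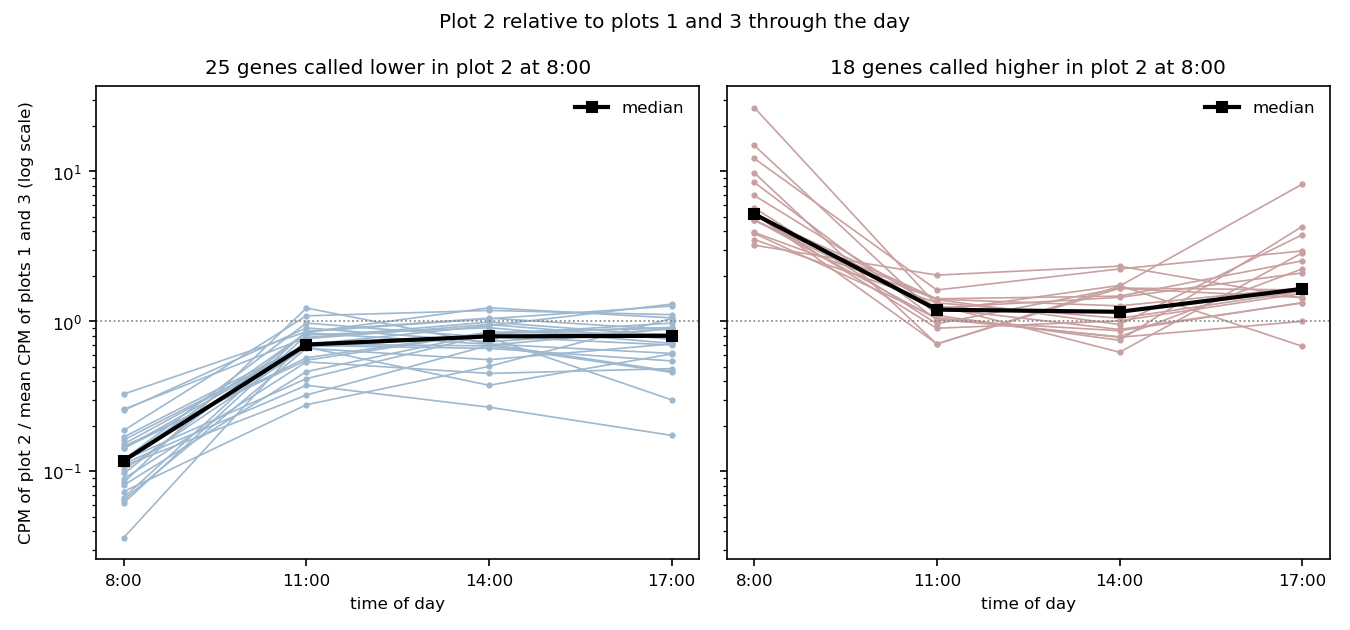
Ratio of CPM in plot 2 to the mean CPM of plots 1 and 3, on a log axis, against time of day for the genes called at 8:00, each line a gene and the black line the median. For the 25 genes called lower the median ratio was 0.118 at 8:00 and 0.702 to 0.803 later, and for the 18 called higher it was 5.20 at 8:00 and 1.16 to 1.65 later.

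The 8:00 term was called for 4 genes (0.0113%), all lower in plot 2 at 8:00 relative to its later difference, and only PRR5 of them had a name. PRR5 (Glyma.03G261300), a repressor of morning clock genes in Arabidopsis, had 2.70, 42.5, 34.7 and 7.61 CPM in plot 2, against 38.3, 57.9, 42.5 and 10.8 CPM in plot 1 and 49.3, 46.8, 34 and 10.5 CPM in plot 3. The 8:00 value of plot 2 was 0.0618 of the mean of the other plots, and its later values were 0.714 to 0.908 of it, so nearly the whole difference lay in 1 library (8:00 term -3.71 ± 0.32 (SE), adjusted p = 0.00395, edgeR). The call held in all 11 fits that left out another library, and it was lost with a term for every hour and group in place of the 8:00 term (-3.71, adjusted p = 0.0583), where Glyma.01G021700 alone stayed past the threshold (adjusted p = 0.0490).

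Glyma.01G021700, with no name, showed the largest term, -4.48 ± 0.36 (SE, edgeR adjusted p = 0.00395). It had 0.312, 29, 45.1 and 22.1 CPM in plot 2, against 9.34, 41, 48.1 and 27.8 CPM in plot 1 and 7.89, 34.6, 46.3 and 30.3 CPM in plot 3. It too kept its call in all 11 fits. Glyma.19G260400 had 9.83 CPM at 8:00 in plot 2, against 81.6 CPM in plot 1 and 121 CPM in plot 3 (term -3.42), and Glyma.13G361200 had 34.5 CPM, against 162 and 205 CPM (term -2.58). At the later hours Glyma.19G260400 was 0.845 to 1.23 times the mean of plots 1 and 3 and Glyma.13G361200 was 1.09 to 1.11 times, and their calls held in 8 and 4 of 11 fits. The same term for 11:00, 14:00 and 17:00, each in its own fit, was called for no gene by edgeR, with unadjusted p under 0.05 for 956, 725 and 710 genes, against 3732 for 8:00. DESeq2 called 2, 0 and 2 genes for these hours. The number of calls for 8:00 was 62 without plot 1 at 8:00, 7 without plot 3 at 8:00, 8 without plot 1 at 17:00, and 2 without plot 3 at 11:00, plot 2 at 14:00 or plot 2 at 17:00.

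The plain difference at 8:00, added after the 8:00 term had been seen, was called for 43 genes, 25 lower (0.0704%) and 18 higher (0.0507%) in plot 2. In all 25, plot 2 was also below plot 4, and in all 18 it was also above it. These genes were chosen for their 8:00 values in plot 2, so its place beyond plot 4 at that hour is a description. The share of all genes tested with plot 2 beyond plot 4 in this way was not counted. For the same reason a steep change from 8:00 to 11:00 in plot 2 restates the choice and is no separate result. The median change was 3.02 on the log2 scale for the 25 and -2.11 for the 18 in plot 2. The 8:00 library of plot 2 had 21457584 counts and a TMM factor of 0.918, both inside the range of plots 1 and 3. Its summed CPM on the ribosomal RNA matches was 1809, against 6197 in plot 1 and 3885 in plot 3 at the same hour, and the part of this gap in the 8:00 calls was not tested. With single libraries left out there were 35 to 56 calls, except 5 without plot 3 at 8:00, plot 1 at 11:00 or plot 3 at 11:00, and 9 without plot 1 or plot 3 at 14:00 (edgeR).

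Of these 43 genes, 11 had a name and at least 5 CPM in their highest 8:00 library, and those not in the clock list were chosen after their values were seen. A response regulator-like gene of the PRR73 type, Glyma.04G228300, named after a rice relative of PRR7, had 1.92, 5.44, 45.3 and 185 CPM in plot 2, against 26, 20.9, 90.9 and 191 CPM in plot 1 and 26.4, 18.2, 89.8 and 163 CPM in plot 3. It was 0.0735 of the mean of the others at 8:00 and 1.05 of it at 17:00 (difference at 8:00 -3.76 ± 0.30 (SE), adjusted p = 0.0108, edgeR). A cytokinin-O-glucosyltransferase (Glyma.08G178200), an enzyme that stores cytokinin as a glucoside, had 1.35 CPM at 8:00 in plot 2, against 15.3 CPM in plot 1 and 11 CPM in plot 3. A nonsymbiotic hemoglobin (Glyma.11G121700), of a family that binds oxygen and nitric oxide, had 0.988 CPM at 8:00, against 8.31 and 8.41 CPM, and an IST1-like protein (Glyma.12G203000), of the membrane sorting machinery, had 2.39 CPM, against 16.6 and 23.2 CPM. All of these were called lower in plot 2 at 8:00, and the NAC factor described above was as well. With single libraries left out, the call held in all 11 fits for the PRR73-type gene, in 6 for the glucosyltransferase, in 5 for the IST1-like gene and the NAC factor, and in 3 for the hemoglobin.

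Higher at 8:00 was a trichome birefringence-like 41 protein (Glyma.12G233400), of a family that acetylates wall polysaccharides, with 41.5, 0.555, 0.429 and 4.08 CPM in plot 2, against 2.84, 0.440, 0.492 and 0.706 CPM in plot 1 and 2.72, 0.574, 0.653 and 1.19 CPM in plot 3. At 11:00 and 14:00 all 3 plots were under 1 CPM (difference at 8:00 3.90 ± 0.33 (SE), adjusted p = 0.0108, edgeR). An aspartic proteinase of the nepenthesin-2 type (Glyma.11G032200) had 25.4 CPM at 8:00 in plot 2, against 2.06 CPM in plot 1 and 2.09 CPM in plot 3, with 19.8 CPM in plot 4. A cold tolerant protein (Glyma.06G298600) had 21.4, 2.22, 4.93 and 13.2 CPM in plot 2, against 1.60, 2.79, 2.17 and 1.30 CPM in plot 1 and 2.77, 3.49, 3.56 and 1.92 CPM in plot 3. With single libraries left out, the calls of these 3 genes held in 10, 7 and 5 of 11 fits. The cold tolerant protein gene was high in plot 2 at both ends of the day, was below both plots at 11:00 and was above them at 14:00.

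**Figure D4:**
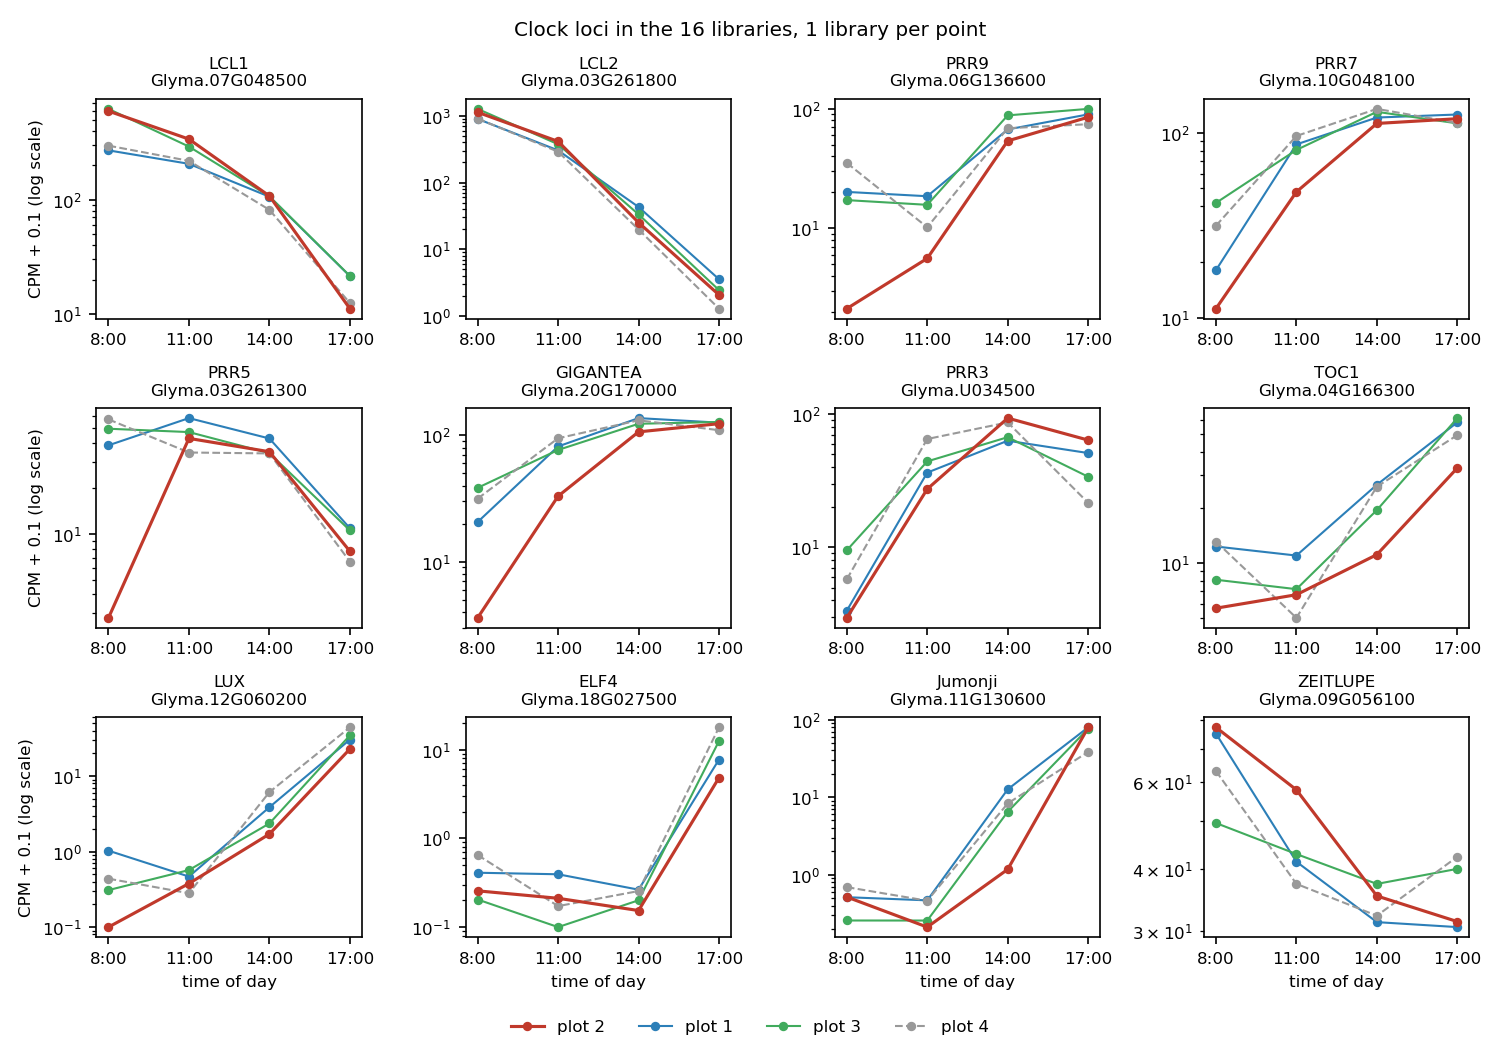
CPM plus 0.1, on a log axis, against time of day for the 12 clock loci, with 1 library per point and plot 4 dashed. Plot 2 was below plots 1 and 3 at 8:00 for PRR9, PRR7, PRR5, PRR3, TOC1, LUX and GIGANTEA, while LCL1 and LCL2 lay between plots 1 and 3 at that hour.

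Across the day as a whole, none of the 12 clock loci was called between plot 2 and plots 1 and 3 (lowest edgeR adjusted p = 0.0934, with 5 at an unadjusted p under 0.05, and 1 called lower by DESeq2). Of the 12, 10 had a negative log2 fold change, and their median was -0.83 against -0.02 over all genes tested. Without the 8:00 libraries the median was -0.40. At 8:00 alone, 3 were called lower, PRR5, PRR9 and GIGANTEA, and none higher. The LCL genes, whose Arabidopsis relatives repress evening genes, showed no such gap. At 8:00 LCL1 had 595 CPM in plot 2, against 269.6 CPM in plot 1 and 621 CPM in plot 3, and LCL2 had 1129.6 CPM, against 898 and 1269 CPM. Both lay between the other plots, and the difference at 8:00 was 0.42 ± 0.45 for LCL1 and 0.06 ± 0.36 for LCL2 (log2, SE).

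PRR9 (Glyma.06G136600) had 2.03, 5.5, 53.6 and 84.6 CPM in plot 2, against 20.0, 18.4, 66.8 and 89.4 CPM in plot 1 and 17.1, 15.6, 87.7 and 99.3 CPM in plot 3. GIGANTEA (Glyma.20G170000), which ties the clock to flowering, had 3.49, 32.9, 106 and 124 CPM in plot 2, against 20.5, 81.6, 137 and 126 CPM in plot 1 and 38.3, 76.5, 123 and 128 CPM in plot 3. In both, plot 2 was below the other plots at all 4 hours, and its ratio to their mean climbed to 0.897 and 0.975 at 17:00. The differences at 8:00 were -3.19 ± 0.32 for PRR9 (adjusted p = 0.0289) and -3.07 ± 0.42 for GIGANTEA (adjusted p = 0.0485), and with single libraries left out the calls held in 8 and 3 of 11 fits (edgeR). PRR7 (Glyma.10G048100) had 11.1, 47.8, 112 and 119 CPM in plot 2, against 18, 86.2, 120.4 and 125 CPM in plot 1 and 41.6, 80.5, 129 and 112 CPM in plot 3. Its morning values in plot 2 were the lowest, without a call (-1.42 ± 0.45 at 8:00, adjusted p = 0.232, edgeR).

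TOC1 (Glyma.04G166300), a repressor that peaks in the evening, was below both plots at all 4 hours and had 5.57, 6.61, 11 and 32.8 CPM in plot 2, against 12.2, 10.9, 26.5 and 58.1 CPM in plot 1 and 7.99, 7.09, 19.3 and 61.3 CPM in plot 3. This gap was spread over the day, with ratios of 0.480 to 0.736, and it was not called (log2 fold change -0.81 ± 0.17 (SE), adjusted p = 0.0934, edgeR). LUX (Glyma.12G060200), of the evening complex, had 0, 0.278, 1.61 and 22.7 CPM in plot 2, against 0.929, 0.367, 3.77 and 30.3 CPM in plot 1 and 0.209, 0.469, 2.26 and 34.5 CPM in plot 3. The 0 in plot 2 at 8:00 allows up to 0.156 CPM (3 counts in that library, counting error only), at least 3.65-fold lower than the mean of plots 1 and 3, against 18 counts in plot 1 and 4 in plot 3, and the 4 counts of plot 3 lie close to that limit. ELF4, of the same complex, had 4.72 CPM at 17:00 in plot 2, against 7.61 CPM in plot 1 and 12.4 CPM in plot 3, and was under 1 CPM before that. Jumonji had 1.07 CPM at 14:00 in plot 2, against 12.5 CPM in plot 1 and 6.38 CPM in plot 3, but 79 CPM at 17:00, against 79.4 and 76.3 CPM. PRR3 and ZEITLUPE had differences at 8:00 of -1.14 ± 0.58 and 0.31 ± 0.30 (log2, SE), neither called.

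Genes of wall growth and of auxin response mostly had positive log2 fold changes in plot 2 and ferritins negative ones, but apart from the 5NG4 gene no member of these lists was called by edgeR. Xyloglucan and expansin genes numbered 15, with 13 positive, 5 at an unadjusted p under 0.05, 1 called higher by DESeq2, and a median of 0.91. Auxin-responsive genes numbered 18, with 15 positive, 1 called lower and a median of 1.08, and 5 ferritins, which store iron in plastids, were all negative, with a median of -1.76, 2 at an unadjusted p under 0.05 and 1 called lower by DESeq2. All genes tested gave 47.0% positive and a median of -0.02, with 4939 at an unadjusted p under 0.05. The 923 tested genes of the list that the study chose for spread between plots gave 61.9% positive, a median of 0.25, 10 called higher and 3 called lower, with 285 at that p.

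**Figure D5:**
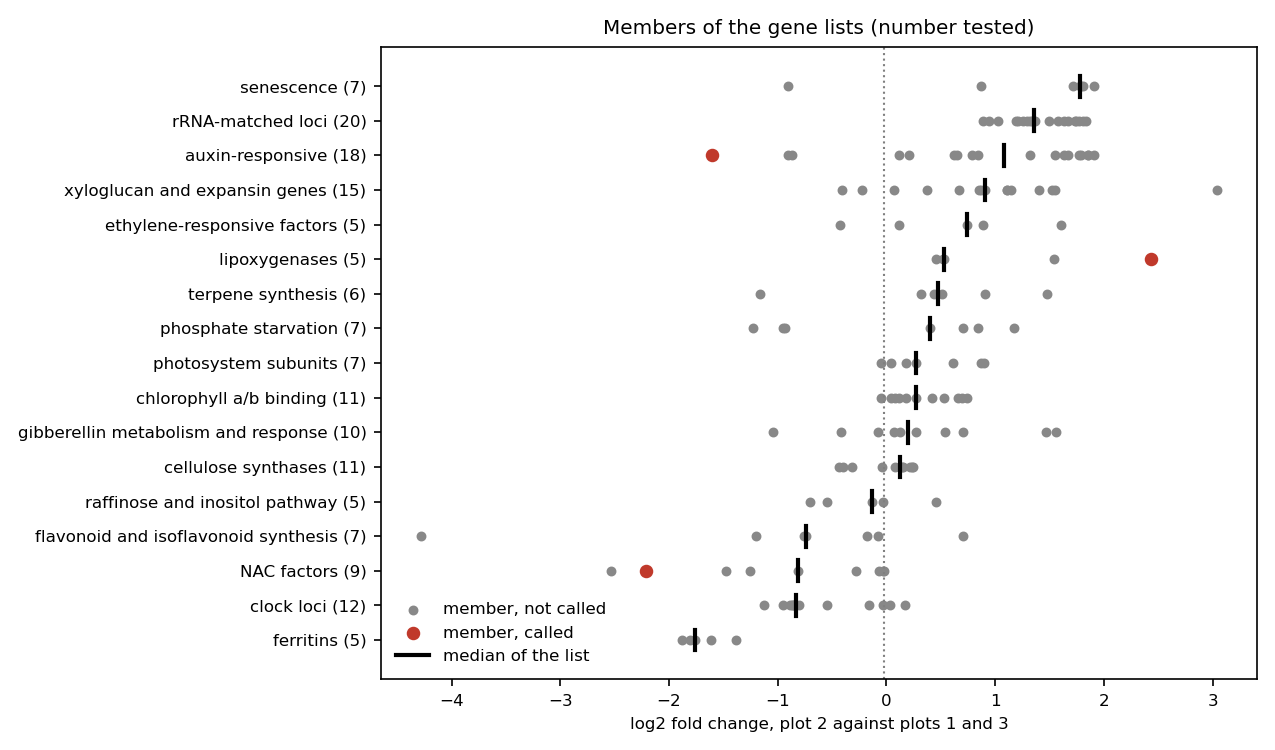
Log2 fold change of plot 2 against plots 1 and 3 for each member of the gene lists with at least 5 tested loci, with called members in red, the list median as a black bar and the median of all genes tested as a dotted line. Ferritins, clock loci and NAC factors had the lowest medians, and senescence and rRNA-matched loci the highest.

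A xyloglucan endotransglycosylase/hydrolase, Glyma.05G109600, of the enzymes that cut and rejoin wall xyloglucan, had 33, 0.722, 0.482 and 0.0458 CPM in plot 2, against 3.77, 0.587, 0.0410 and 0 CPM in plot 1 and 0.470, 0.209, 0.0502 and 0.0426 CPM in plot 3. The gene was above 1 CPM in plots 2 and 1 only at 8:00, where plot 2 was 15.6 times the mean of the other plots (log2 fold change 3.04 ± 0.66 (SE), adjusted p = 0.103, edgeR). Another, Glyma.11G193600, had 23.3, 22.4, 14.7 and 8.52 CPM in plot 2, against 10.1, 9.83, 6.68 and 6.44 CPM in plot 1 and 2.30, 6.73, 7.38 and 14.2 CPM in plot 3. It was above both plots until 14:00 and between them at 17:00 (log2 fold change 1.11). The list median was 0.54 against plot 1 and 1.68 against plot 3. Summed CPM over the list in plot 2 was 128.3, 114.3, 70.2 and 139.1 at 8:00, 11:00, 14:00 and 17:00. Plot 1 had 63.5, 81.5, 64.8 and 209.1 CPM, and plot 3 had 25.8, 62.5, 60.2 and 330.7 CPM. By this sum plot 2 was above both plots until 14:00 and below both at 17:00.

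None of the 3 plots was high in auxin-responsive transcripts throughout the day. Summed over the list, plot 2 had 84.7, 42.0, 215.1 and 287.2 CPM at 8:00, 11:00, 14:00 and 17:00, against 36.6, 231.6, 45.5 and 27.2 CPM in plot 1 and 46.1, 56.4, 53.1 and 306.6 CPM in plot 3. Of these 3, plot 2 was the highest at 8:00 and 14:00, plot 1 at 11:00 and plot 3 at 17:00, and plot 4 had 93.2 CPM at 8:00. SWEET proteins export sugars from cells. Glyma.08G009900, a SWEET gene, had 55.5, 17.8, 134 and 211 CPM in plot 2, against 3.56, 112, 14.9 and 5.42 CPM in plot 1 and 6.48, 23.2, 16.6 and 182 CPM in plot 3, with log2 fold change 1.97 and no call (edgeR adjusted p = 0.374). Its high libraries among the 12 were plot 2 at 14:00 and 17:00, plot 1 at 11:00 and plot 3 at 17:00.

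Among the ferritins, Glyma.02G262500 had 2.44, 7.94, 2.14 and 2.43 CPM in plot 2, against 8.41, 10.1, 7.26 and 4.51 CPM in plot 1 and 9.82, 12.3, 8.23 and 23.9 CPM in plot 3. It was below both plots at all 4 hours (log2 fold change -1.61 ± 0.43 (SE), adjusted p = 0.157, edgeR). The others peaked at 11:00 in plots 2 and 3. Glyma.01G124500 had 7.91, 191, 11.3 and 9.58 CPM in plot 2, against 31.7, 22, 22.1 and 15.2 CPM in plot 1 and 59.3, 415, 105 and 118 CPM in plot 3. Plot 2 was thus above plot 1 at 11:00 and below it at the other hours. The median of the 5 was -0.03 against plot 1 and -2.39 against plot 3, with 3 of the 5 negative against plot 1 and all 5 against plot 3.

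The loci of asparagine synthesis and of nitrate reduction all had negative log2 fold changes, without a call by edgeR. Of 3 asparagine synthetases, which make an amide that carries nitrogen between organs, Glyma.02G228100 had 10.5, 20.4, 6.22 and 1.01 CPM in plot 2, against 10.1, 37, 70.9 and 24.7 CPM in plot 1 and 14.9, 98.4, 69.8 and 38.9 CPM in plot 3. The afternoon values of plot 2 were 0.0317 and 0.0884 of the mean of the others, at 17:00 and 14:00 (log2 fold change -2.22 ± 0.62 (SE), adjusted p = 0.172, edgeR). The median of the 3 was -1.18, with 2 at an unadjusted p under 0.05 and 1 called lower by DESeq2, and that of 2 nitrate reductases, the first step of nitrate assimilation, was -1.06. A nitrate reductase, Glyma.13G084000, had 8.95 CPM at 8:00 in plot 2, against 66.3 CPM in plot 1 and 86.3 CPM in plot 3. Of 7 flavonoid and isoflavonoid genes, 1 was positive and none was called by edgeR or DESeq2 (2 at an unadjusted p under 0.05), with a median of -0.74.

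Light-harvesting genes mostly had positive log2 fold changes in plot 2, larger at 8:00 than over the day. Of 11 chlorophyll a/b binding loci, 10 were positive and 5 were above both plots at all 4 hours, none was called by edgeR or DESeq2 over the day (4 at an unadjusted p under 0.05), and the median was 0.28. At 8:00 the median was 1.31, with no call by edgeR, 6 at an unadjusted p under 0.05 and 5 called higher by DESeq2, and without the 8:00 libraries the median was 0.15. Loci with a name come mostly from the list that the study chose for spread between plots. That list had 61.9% positive and a median of 0.25 over the day, and a median of 0.80 at 8:00. Summed over the 11 loci, plot 2 had 7324 CPM at 8:00, between 4509 CPM in plot 1 and 7721 CPM in plot 3. At the later hours its sum was above both. Glyma.12G219300, of the light-harvesting complex of photosystem II, had 541, 788, 777 and 396 CPM in plot 2, against 229.96, 536, 346 and 261 CPM in plot 1 and 403, 502, 582 and 294 CPM in plot 3. It was above both at each hour, at 1.43 to 1.71 times their mean (log2 fold change 0.66 ± 0.18 (SE), adjusted p = 0.162, edgeR). Of 7 photosystem subunit loci, 4 of them among the chlorophyll a/b binding loci, 6 were positive with a median of 0.28, which was -0.40 without the 8:00 libraries. Against plot 1 alone, 2 were called higher in plot 2, both photosystem I subunit O, with log2 fold changes of 1.43 (Glyma.11G181100, edgeR adjusted p = 0.0103) and 1.09 (Glyma.12G092000, adjusted p = 0.0353). Among the lists with at least 5 tested loci, the sign of 2 more medians depended on the 8:00 libraries. Ethylene-responsive factors had 0.74 with them and -0.22 without, and cellulose synthases had 0.12 with them and -0.58 without.

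Loci described as senescence-associated were high in the same libraries as the ribosomal RNA matches. Of 7 senescence loci, 6 were positive, none was called over the day by edgeR or DESeq2 (6 at an unadjusted p under 0.05) and the median was 1.78. At 8:00 all 7 were negative with a median of -1.81, and there edgeR called none (6 at an unadjusted p under 0.05) and DESeq2 called 5 lower. Glyma.13G024100, 1 of 5 named only as senescence-associated proteins, had 275, 339, 2841 and 1687 CPM in plot 2, against 1204, 154, 173 and 143 CPM in plot 1 and 716, 269, 179 and 433 CPM in plot 3. All 5 carry locus numbers within the stretch of the 20 loci that match ribosomal RNA, which had a median of 1.36 over the day, with no call by edgeR or DESeq2 and 15 at an unadjusted p under 0.05. At 8:00 all 20 were negative with a median of -1.52, and edgeR called none (9 at that p) and DESeq2 called 3 lower. Of those loci, Glyma.13G016700 had 483, 584, 3244 and 1851 CPM in plot 2, against 1012, 384, 399.8 and 382 CPM in plot 1 and 783, 454, 526 and 649 CPM in plot 3. Among the 12 libraries both loci were highest in plot 2 at 14:00 and 17:00, followed by plot 1 at 8:00, while plot 4 at 17:00 had 2516 CPM of Glyma.13G024100 and 2207 CPM of Glyma.13G016700. The part of carried-over ribosomal RNA in the senescence values was not tested. The stay-green gene Glyma.01G214600, which acts in chlorophyll breakdown and lies elsewhere, had 10.5, 20.2, 25.8 and 12.1 CPM in plot 2, against 45.8, 31, 34.1 and 27.7 CPM in plot 1 and 35.7, 20.3, 34.7 and 24.8 CPM in plot 3. It was below both plots at every hour, without a call (log2 fold change -0.90 ± 0.24 (SE), adjusted p = 0.151, edgeR).

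Small heat shock proteins, chaperones of heat-stressed cells, had low counts, with larger values in plot 2 than in plots 1 and 3 after 8:00. Glyma.06G054700 had 0.520, 13.1, 3.48 and 0.412 CPM in plot 2, against 0.310, 0.954, 0.697 and 0.118 CPM in plot 1 and 1.25, 1.46, 0.653 and 0.170 CPM in plot 3, and plot 4 had 0.549, 5.10, 3.28 and 0.686 CPM. Plot 2 was 10.9 times the mean of plots 1 and 3 at 11:00 and 0.665 of it at 8:00 (log2 fold change 2.05 ± 0.52 (SE), adjusted p = 0.140, edgeR). All 3 loci were positive, with a median of 2.72. None was called by edgeR, all 3 had an unadjusted p under 0.05, and DESeq2 called 1 higher.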

How the data were processed

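RNA was sequenced from pooled leaflets as poly(A) libraries (TruSeq, 2 lanes, with the lane of each library not stated). The authors called bases with CASAVA 1.8.2 (submitters' processing notes), trimmed reads with Trimmomatic, aligned them with TopHat to assembly 2, annotation 1 of Williams 82, and deposited 1 table of raw counts per gene made with HTSeq-count. Gene names came from the paper and from the part of its supplementary gene list held here (828 of 931 genes named). The reference table matched 0 loci, so no coordinates or sequences are printed.

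The deposited counts were tested in R 4.3.3 with edgeR 4.0.16 (TMM, quasi-likelihood F test, Benjamini-Hochberg over all genes tested), with time point and plot 2 as terms. A fit with plot as 3 levels gave the pairwise contrasts, and a term for plot 2 at 1 hour gave the hourly tests. The SE is the log2 fold change over the root of F, an approximation. CPM used TMM factors over all 16 libraries. A term for every hour and group gave the plain difference at 8:00. The fits were also run on simulated counts that had a common dispersion for all genes and no effect of plot or day. That run does not measure error between plots or days. Alternatives used DESeq2 1.42.0 and limma 3.58.1.

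Genes were named if called, with a name, on 1 side of both plots at 4 hours and with a mean of 5 CPM in the higher group (at most 10 a direction, and the largest rise and fall with or without a name); if called for the 8:00 term with a name and 5 CPM (at most 8 a direction, with the same exception); if a clock locus; or if among the 4 smallest adjusted p of a list described. Other genes are marked in the text. The plots compared and the 39 gene lists were chosen with earlier results of these data known; 6 lists had no tested member.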

Additional observations from a re-analysis of the deposited data

Results flagged for a closer look

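In 5 of 33 genes examined, the 8:00 difference of plot 2 from the mean of plots 1 and 3 stood apart from its differences at the 3 later hours, by a gap beyond Dixon's critical value for 4 values (log2 CPM with a prior count of 1). Chance flags about 1 in 20 groups, but 4 of the 5 genes were among the 33 because the 8:00 term had chosen them for this gap, so the number cannot be read against that rate. Each gap rests on 1 library of plot 2. For PRR5 (Glyma.03G261300) the difference was -3.98 at 8:00 and -0.48 to -0.13 later. For LUX (Glyma.12G060200), it was -3.41 at 8:00 and -0.84 to -0.51 later. LUX had no counts in plot 2 at 8:00, so its value there and its gap are set by the prior count and are no estimate. The limit of that 0, 3 counts in the library, puts it at least 3.65-fold lower than the mean of plots 1 and 3. Glyma.01G021700 had -4.59 at 8:00 and -0.39 to -0.07 later, Glyma.19G260400 had -3.33 at 8:00 and -0.24 to 0.30 later, and Glyma.13G361200 had -2.40 at 8:00 and 0.13 to 0.25 later.

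In 4 genes, edgeR's term for the 8:00 difference of plot 2 against its later difference passed the threshold. The term was -3.71 for PRR5, -4.48 for Glyma.01G021700, -3.42 for Glyma.19G260400 and -2.58 for Glyma.13G361200, with edgeR adjusted p = 0.00395 for the first pair, 0.0138 for Glyma.19G260400 and 0.0182 for Glyma.13G361200.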

How the results depend on the processing

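Plot 2 is 1 plot on 1 day, and its difference from plots 1 and 3 cannot be assigned to either; depth, at 14968570 counts or more, limited mainly loci under 1 CPM, such as LUX and ELF4 in the morning. No pairing by plot was possible because the groups compared are plots, and the numbers in the titles name the plots themselves. Libraries were matched across plots only by time of day, which was a term in every fit but 1.

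Against plots 1 and 3 the count of 26 calls was 40 with no fold threshold, 11 with library totals alone, 55 with no count filter, 48 with limma and voom, and 294 with the DESeq2 Wald test (54.4% higher, against 73.1% of the 26). With plots 1, 3 and 4 as the comparison it was 36, of which 15 were among the 26. It was 297 against plot 1 alone, 0 against plot 3 alone (3869 genes at an unadjusted p under 0.05, edgeR), and 0 without time point in the model. Without the libraries of 8:00, 11:00, 14:00 and 17:00 it was 0, 10, 1 and 0, and with single libraries left out 0 to 23. Against plot 1, 380 calls became 868 with no fold threshold and 20 to 518 with single libraries left out. Against plot 3, 17 became 0 to 22, and between plots 1 and 3, 53 became 0 to 353. The 4 calls of the 8:00 term became 377 with the DESeq2 Wald test, 35 with no count filter, 8 with plots 1, 3 and 4, 1 with a term for every hour, 6 with library totals alone, and 2 to 62 with single libraries left out. The terms for 11:00 and 17:00 gave 2 calls each with DESeq2. The plain difference at 8:00, added after the data were seen, gave 43 calls, 721 with DESeq2 and 5 to 56 with single libraries left out. Why these counts moved was not tested, beyond the fewer libraries or genes that some settings hold by construction.

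Over 35 results on single genes and 648 refitted values, 442 kept direction and side of the threshold, 202 kept direction but lost the call, and 0 called values changed sign. Several of the 35 were clock loci not called at 8:00, which kept their side by staying uncalled, while all 202 losses came from called results. The 442 is therefore no measure of how well the calls held. In 3 differences at 8:00 that were not called, the sign changed without plot 1 at 8:00: -0.06 for LCL1, -0.17 for LCL2 and 0.55 for ELF4. The remaining 1 was PRR7 at 8:00, called lower by DESeq2 (-1.39, adjusted p = 0.0397).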

Other observations

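The 8:00 genes of plot 2 were also read in plot 4, which entered no test but the alternative with 3 plots for comparison. The 4 genes called for the 8:00 term had a median log2 change from 8:00 to 11:00 of 3.68 in plot 2, which restates how they were chosen, against 0.63 in plot 1 (4 of 4 up), -0.05 in plot 3 (1 of 4 up) and -0.10 in plot 4 (2 of 4 up). Over all genes tested the median change was 0.02 in plot 2 and 0 in plot 4. PRR5 in plot 4 had 56.8, 34.3, 33.9 and 6.49 CPM at 8:00, 11:00, 14:00 and 17:00, and PRR9 had 35.1, 10.1, 68.4 and 74 CPM. The PRR73-like gene Glyma.04G228300 had 43.6, 14.1, 83.6 and 122 CPM there. For the 3 called rises with a name at 8:00, plot 4 had 1.94 CPM of the trichome birefringence-like 41 gene, 19.8 CPM of the aspartic proteinase gene and 0.845 CPM of the cold tolerant protein gene at that hour.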
